A study of Homo sapiens with 4 samples.

Results

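The Eph receptors and ephrins described here are 10 genes of 1 signalling family, 6 receptors (*EPHA1*, *EPHA2*, *EPHA4*, *EPHB2*, *EPHB3* and *EPHB4*) and 4 ligands (*EFNA1*, *EFNA5*, *EFNB1* and *EFNB2*). They were taken by name from the 16813 genes listed with a value above 0 in at least 1 library, and all 10 had enough reads to be tested. RNA was sequenced from 2 groups of 2 libraries. PC9, the control, is a lung adenocarcinoma cell line that carries an activating *EGFR* mutation. PC9OR is its counterpart resistant to osimertinib, a kinase inhibitor of mutant EGFR. Both are labelled as wild type in genotype and were kept in RPMI medium with fetal bovine serum. Both lines came from the same outside laboratory. PC9OR is a single derived line, so that resistance cannot be told apart from other differences between these lines, and whether osimertinib was present at harvest is not given in the sources used here.

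Eph receptors form the largest family of receptor tyrosine kinases, and their ligands are themselves bound to the cell surface, so that signalling takes place where cells touch. A-type ephrins are held by a lipid anchor and B-type ephrins cross the membrane. Binding sends a forward signal into the cell that carries the receptor, mainly to the cytoskeleton, and a reverse signal into the cell that carries the ephrin. In epithelial tumours *EPHA2* is the best known member. It restrains migration when bound by an A-type ephrin, and promotes it without ligand after phosphorylation on serine by AKT or RSK kinases.

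The 4 libraries held 23201307 and 29062064 expected counts (PC9) and 31948974 and 32203998 (PC9OR), and 13148 genes were tested. The precision of a low value follows from this depth: 3 counts correspond to between 0.0936 and 0.128 CPM, the count scaled to the TMM-normalised library size, and this limit covers counting error only. Of 9 markers of epithelium and lung adenocarcinoma, 6 exceeded 1 FPKM (a level scaled to transcript length and library size) in every library, with sums of 2576 and 2987 in PC9 against 5720 and 5511 in PC9OR. The 4 keratins of the list made up most of these sums, whereas *EPCAM* had a log2 fold change of -0.01 (adjusted p = 0.931, edgeR) and the adherens junction gene *CDH1* fell, from 69.5 and 49.5 FPKM to 22.0 and 20.1 FPKM (log2 fold change -1.46, adjusted p = 0.00814, edgeR). Markers of the alveolar lineage were at or near the floor: *SFTPB* was at 0 in all 4 libraries and *NKX2-1* at 0 in both PC9 libraries. None of 6 fibroblast markers exceeded 1 FPKM, and the T cell marker *CD3E* was at 0 throughout. Endothelial markers summed to 6.51 and 4.10 FPKM in PC9 and to 0.88 in each PC9OR library. Nearly all of this came from *CDH5*, and *KDR* was at 0 in all 4. The 6 leukocyte markers summed to 7.33 and 5.77 FPKM in PC9 and to 2.97 and 2.76 in PC9OR. Most of this came from *CD68*, at 6.36 and 5.12 FPKM in PC9 and 2.75 and 2.49 in PC9OR (log2 fold change -1.10, adjusted p = 0.0158, edgeR). The part of these markers in the results on Eph genes was not tested. The PC9 libraries differed from each other more than the PC9OR libraries did (biological coefficient of variation within the line 0.241 and 0.104).

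Sequence context is given for the 4 members whose difference between the lines was called both without and with a correction for transcript length and GC content. The 250 bases before the outermost RefSeq transcription start (build GRCh38.p14) are printed 5′ to 3′ on the strand of the gene. Capitals mark matches to 6 short motifs searched on both strands, namely the AP-1 site TGANTCA, the cAMP response element TGACGTCA, the E-box CACGTG, the SP1 GC box GGGCGG, the TATA box TATAAA and the ETS site CCGGAAGT. The windows lie at chr1:16156070-16156319 on the minus strand (*EPHA2*), chr2:221574203-221574452 on the minus strand (*EPHA4*), chr5:107670938-107671187 on the minus strand (*EFNA5*) and chrX:68828771-68829020 on the plus strand (*EFNB1*).
EPHA2: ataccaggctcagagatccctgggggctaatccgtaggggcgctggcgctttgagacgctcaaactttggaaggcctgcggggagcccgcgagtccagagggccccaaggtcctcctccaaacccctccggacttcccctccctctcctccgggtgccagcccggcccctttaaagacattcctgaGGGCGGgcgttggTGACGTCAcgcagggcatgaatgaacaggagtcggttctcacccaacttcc
EPHA4: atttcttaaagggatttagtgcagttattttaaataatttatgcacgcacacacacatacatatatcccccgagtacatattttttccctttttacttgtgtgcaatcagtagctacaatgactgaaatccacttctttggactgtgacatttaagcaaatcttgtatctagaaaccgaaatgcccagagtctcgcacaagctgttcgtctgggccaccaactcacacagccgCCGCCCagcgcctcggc
EFNA5: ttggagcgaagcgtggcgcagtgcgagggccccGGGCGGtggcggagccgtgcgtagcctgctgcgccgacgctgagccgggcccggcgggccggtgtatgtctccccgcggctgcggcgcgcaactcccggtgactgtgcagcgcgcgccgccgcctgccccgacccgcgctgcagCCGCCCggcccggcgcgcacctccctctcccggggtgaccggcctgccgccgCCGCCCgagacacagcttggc
EFNB1: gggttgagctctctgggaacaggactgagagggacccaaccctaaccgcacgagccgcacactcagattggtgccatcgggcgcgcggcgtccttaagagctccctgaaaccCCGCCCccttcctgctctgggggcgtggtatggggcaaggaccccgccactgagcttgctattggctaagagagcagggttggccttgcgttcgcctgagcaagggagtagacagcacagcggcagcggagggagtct

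The *EPHA2* window held a cAMP response element 51 to 44 bases before the start, a motif found in 1.65% of the 35116 RefSeq windows of this length, and a GC box 64 to 59 bases before it. The *EPHA4* window held 1 GC box, 17 to 12 bases before the start, and *EFNB1* held 1 at 138 to 133. *EFNA5* held 3 GC boxes, the nearest at 21 to 16 bases. GC boxes occur in 42.6% of all windows and were present before a start of all 10 members. The AP-1 site (6.57% of all windows), the E-box (6.34%), the TATA box (10.7%) and the ETS site (3.42%) had no match in the 4 windows shown. No matches overlapped. CpG content was highest in the *EFNA5* window, with 41 CpG dinucleotides. It was equal in *EPHA2* and *EFNB1*, at 15 each, and lowest in *EPHA4*, at 9, against a median of 11 over all windows. *EPHA4* has a further RefSeq start downstream with a window of its own, which was not printed. That window held 30 CpG dinucleotides and 5 GC boxes, with a GC content of 78% against 43.2% in the printed one. Motif matches describe the sequence only.

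Between PC9 and PC9OR the family changed in both directions. Of the 10 members, *EPHA4* and *EFNB1* were higher in PC9OR, and *EPHA2*, *EPHB2*, *EFNA5* and *EFNB2* were lower (edgeR quasi-likelihood test, Benjamini-Hochberg adjusted p under 0.05). *EPHA1*, *EPHB3*, *EPHB4* and *EFNA1* did not pass. Among all genes tested 36.4% were called, 15.6% as higher and 20.8% as lower, so that 2 of 10 higher and 4 of 10 lower stand against a large background. Leaving out a PC9OR library reduced the members called lower to 2 (without replicate 1) and 1 (without replicate 2), and left the 2 called higher. A difference of more than 2-fold was found for 2 members in each direction, *EPHA4* and *EFNB1* upward and *EPHB2* and *EFNA5* downward, where 6.13% and 11.6% of all genes met this. The median log2 fold change was -0.15 over the 10 members and 0.01 over all genes. The libraries of the 2 lines did not overlap for any member, 5 with PC9OR above and 5 with PC9OR below, but this was common in these libraries, at 39.6% and 38.2% of all genes. With 2 libraries a group, p-values measure only the spread between these cultures. In a fit that leaves 1 library in a group, that library is assumed to vary like the other group. A lower level in cultured cells may stand for fewer expressing cells or less RNA in each, which cannot be told apart.

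**Figure D1:**
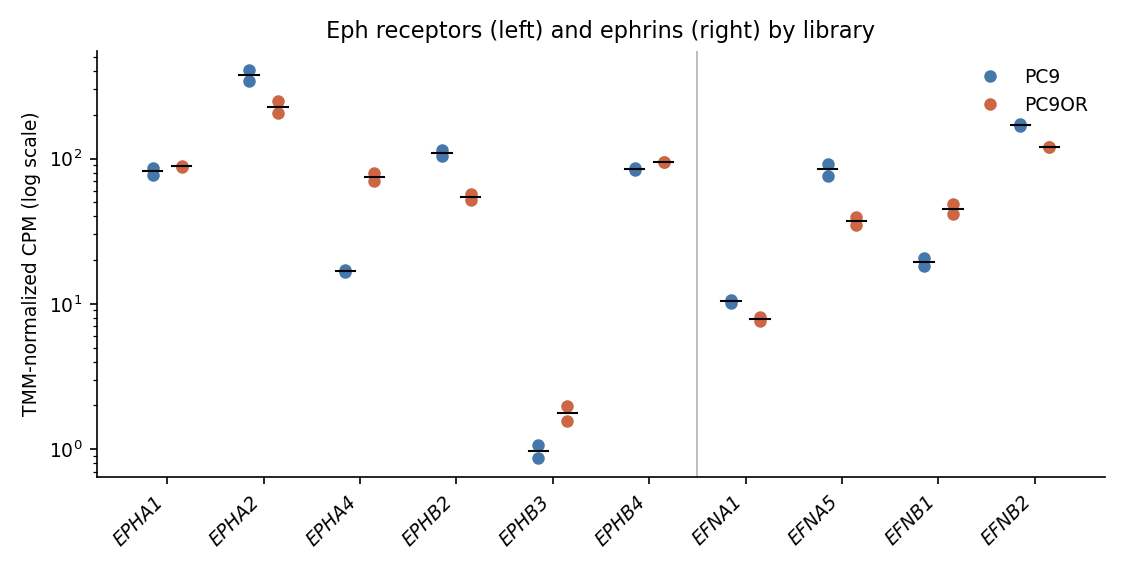
Level of each of the 10 members in the 4 libraries, in CPM on a log axis. Dots are libraries and black lines are group means (n = 2 libraries a group). *EPHA4* and *EFNB1* sit higher in PC9OR, and *EPHA2*, *EPHB2*, *EFNA5* and *EFNB2* sit lower.

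*EPHA2* (1:16450832-16482564 on the minus strand, GRCh37) had the highest FPKM of the receptors in every library. Its levels were 406 and 342 CPM in PC9 and 248 and 205 CPM in PC9OR. Both resistant libraries lay below both parental ones. The means were 374 ± 44.8 and 227 ± 30.4 CPM (SD, n = 2), a log2 fold change of -0.72 (95% interval -1.11 to -0.33), which is 1.65-fold lower (adjusted p = 0.0236, edgeR). The call was kept without either PC9 library and lost without PC9OR replicate 1 (-0.87, adjusted p = 0.0775, edgeR) or PC9OR replicate 2 (-0.59, adjusted p = 0.206, edgeR), with the direction unchanged. An antisense gene, *EPHA2-AS1*, overlaps *EPHA2*, and the strand setting of the counting is not given in the sources used here. Genes on the opposite strand also overlap *EPHA4*, *EPHB2* and *EFNB2*.

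*EPHA4* (2:222282747-222438922 on the minus strand), a receptor that binds ephrins of both classes, showed the largest difference of the 10 members. It measured 16.7 and 17.2 CPM in PC9 and 79.9 and 70.1 CPM in PC9OR. The gap between the lines far exceeded the spread within either. The means of 16.9 ± 0.342 and 75.0 ± 6.92 CPM (SD, n = 2) gave a log2 fold change of 2.15 (95% interval 1.82 to 2.47), or 4.43-fold (adjusted p = 0.00327, edgeR). Leaving out any 1 library kept the log2 fold change between 2.05 and 2.24.

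*EPHB2* (1:23037332-23247993 on the plus strand), a B-type receptor known from cell positioning in the intestinal crypt, measured 115 and 103 CPM in PC9 and 56.7 and 52.0 CPM in PC9OR. Both resistant libraries were close to each other and well below the parental pair. The log2 fold change was -1.01 (95% interval -1.32 to -0.70), or 2.01-fold lower (adjusted p = 0.00772, edgeR). Its transcript is long, at 11036 bases, and 200 genes of similar length had a median log2 fold change of -0.70. With length and GC content in the fit as offsets the difference was 0.02 (95% interval -0.38 to 0.43, adjusted p = 0.925, edgeR), so that direction and call were both lost. Without PC9OR replicate 2 it was -0.95 in the fit without offsets (adjusted p = 0.0550, edgeR).

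*EPHA1* (7:143087382-143105949 on the minus strand), the founding member of the family, and *EPHB4* (7:100400187-100425145 on the minus strand), the main receptor of ephrin-B2, did not pass the test. *EPHA1* measured 86.5 and 77.2 CPM in PC9 and 89.1 and 87.2 CPM in PC9OR, a log2 fold change of 0.11 (95% interval -0.19 to 0.40, adjusted p = 0.487, edgeR). *EPHB4* measured 85.7 and 84.0 CPM against 93.9 and 94.3 CPM, a log2 fold change of 0.15 (95% interval -0.11 to 0.41, adjusted p = 0.286, edgeR). Both intervals include 0 and a modest rise, so that equal expression is not shown. Genes on the opposite strand overlap both loci, *ZYX* and *EPHA1-AS1* at *EPHA1* and *SLC12A9* at *EPHB4*. *EPHB3* (3:184279573-184300196 on the plus strand), another B-type receptor, was barely expressed, at 1.07 and 0.867 CPM in PC9 and 1.56 and 1.97 CPM in PC9OR. Its log2 fold change of 0.87 had a wide interval (-0.10 to 1.84, adjusted p = 0.125, edgeR).

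Among the ligands, *EFNA5* (5:106712595-107006638 on the minus strand), a lipid-anchored ephrin that also binds EPHB2, was lower in PC9OR. It measured 92.3 and 76.0 CPM in PC9 and 34.9 and 39.3 CPM in PC9OR. The parental libraries differed from each other, but both stayed well above the resistant pair. The means of 84.1 ± 11.5 and 37.1 ± 3.13 CPM (SD, n = 2) gave a log2 fold change of -1.18 (95% interval -1.56 to -0.80), or 2.27-fold lower (adjusted p = 0.00842, edgeR). The log2 fold change stayed between -1.33 and -1.04 when any 1 library was left out.

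*EFNB1* (X:68048864-68062003 on the plus strand), a transmembrane ligand, moved the other way. Its levels were 18.3 and 20.7 CPM in PC9 and 48.3 and 41.3 CPM in PC9OR. The lowest resistant library was well above the highest parental one. The means were 19.5 ± 1.72 and 44.8 ± 4.95 CPM (SD, n = 2), with a log2 fold change of 1.2 (95% interval 0.83 to 1.57), or 2.29-fold (adjusted p = 0.00787, edgeR). Without any 1 library the log2 fold change ranged from 1.08 to 1.31.

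*EFNB2* (13:107142093-107188010 on the minus strand), the transmembrane ligand of EPHB4, had the highest FPKM of the ephrins. It measured 174 and 168 CPM in PC9 and 121 and 119 CPM in PC9OR. Replicates were tight in both lines and the groups lay apart. The log2 fold change was -0.51 (95% interval -0.77 to -0.25), or 1.42-fold lower (adjusted p = 0.0195, edgeR). The difference was about as large without PC9OR replicate 1 (-0.52, adjusted p = 0.229, edgeR) or PC9OR replicate 2 (-0.50, adjusted p = 0.255, edgeR), but was not called. With length and GC offsets it was -0.12 (adjusted p = 0.318, edgeR). *EFNA1* (1:155100352-155107375 on the plus strand), the main ligand of EPHA2, measured 10.7 and 10.2 CPM in PC9 and 8.15 and 7.57 CPM in PC9OR. Both resistant libraries were lower, but the log2 fold change of -0.41 did not pass (95% interval -0.87 to 0.06, adjusted p = 0.132, edgeR). It was called with offsets for length alone (-0.63, adjusted p = 0.0475, edgeR) and not with length and GC offsets (-0.47, adjusted p = 0.0781, edgeR).

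Transcript length moved with the difference between the lines, and the members are long, with a median of 4286 bases against 2989 over all genes tested. Across 12294 genes the log2 difference between PC9OR and PC9 fell with transcript length (rank correlation -0.37). The difference between the 2 PC9 libraries did so too (-0.42), while that between the PC9OR libraries did not (0.00). These values are across genes of the same libraries and are given as a description. When length and GC content were entered as offsets estimated in each library, 4 members were called higher (*EPHA1*, *EPHA4*, *EPHB4* and *EFNB1*) and 2 lower (*EPHA2* and *EFNA5*), against 22% and 20.4% of all genes. *EPHA4* then had a log2 fold change of 2.58 (adjusted p = 0.00089, edgeR) and *EFNB1* of 1.38 (adjusted p = 0.00486, edgeR). *EFNA5* stood at -0.90 (adjusted p = 0.00374, edgeR) and *EPHA2* at -0.42 (adjusted p = 0.0246, edgeR). Thus 4 members were called in the same direction in both fits. *EPHA1* at 0.34 (adjusted p = 0.0311, edgeR) and *EPHB4* at 0.44 (adjusted p = 0.0483, edgeR) were called only with the offsets. The median of the members moved from -0.15 to 0.18, while that of all genes moved from 0.01 to 0.05. The part of the length trend in the difference between the lines was not tested, and a change of long transcripts in the cells cannot be told apart from one in the libraries.

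**Figure D2:**
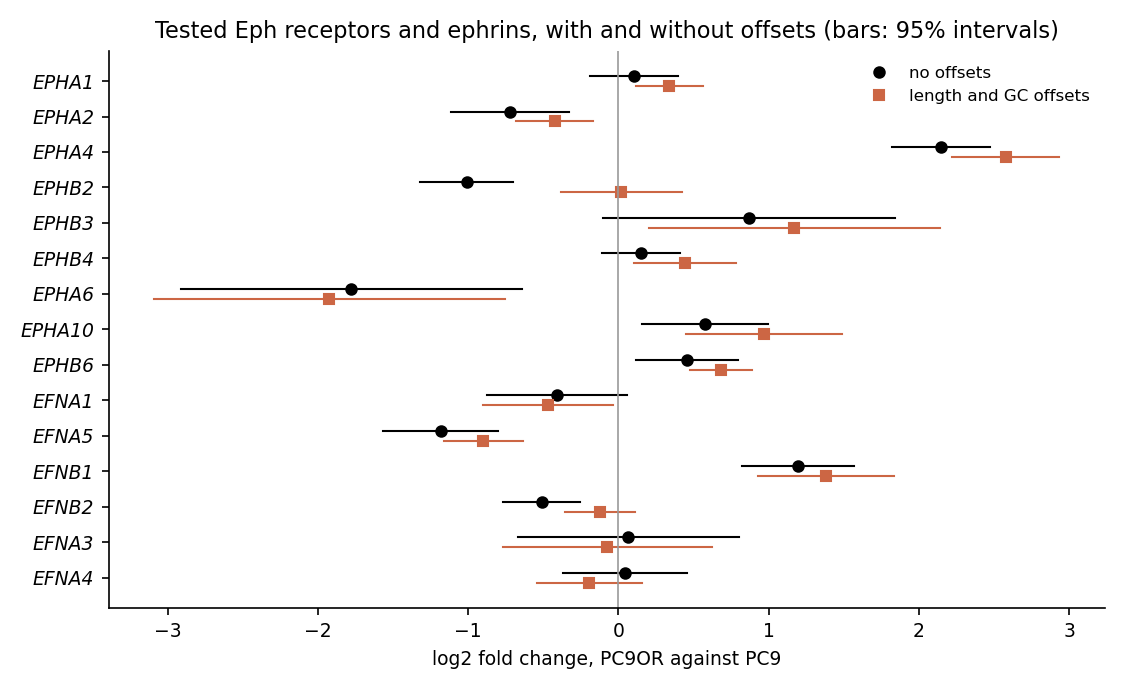
Log2 fold change, PC9OR minus PC9, of the Eph receptors and ephrins tested, other than *EPHA7*, whose PC9OR libraries were at 0. Points are estimates and bars 95% intervals, in black without offsets and in orange with length and GC offsets. *EPHB2* moves from -1.01 to 0.02 between the fits, whereas *EPHA4* stays above 2.

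**Figure D3:**
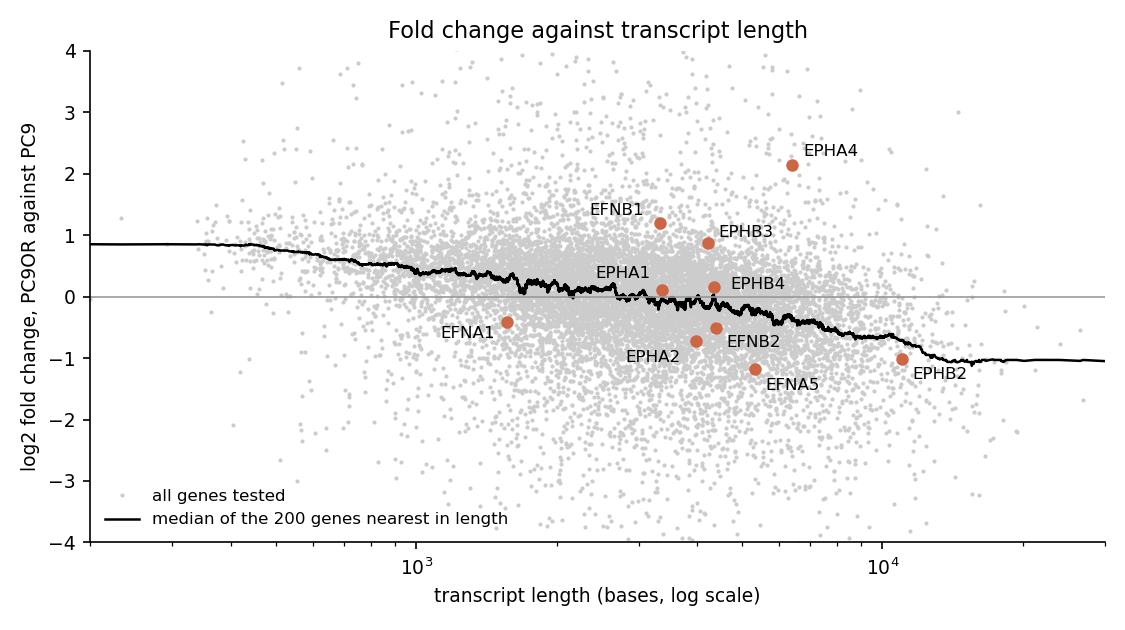
Log2 fold change, PC9OR minus PC9, against transcript length in bases (log axis) for all genes tested, with the 10 members marked. 232 genes lie outside the axes. The cloud falls toward long transcripts, and *EPHB2* lies at its long end while *EPHA4* lies far above it.

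Levels of different genes can be compared per length, in FPKM. This scale does not remove the length trend between the lines described above. *EPHA2* stood at 74.1 and 61.1 FPKM in PC9 and at 44.15 and 35.9 FPKM in PC9OR. It was followed by *EPHA1* (16.4 to 18.9 FPKM over the 4 libraries), *EPHB4* (13.7 to 15.2 FPKM) and *EPHB6* (11.4 to 17.5 FPKM). The ranges of *EPHB4* and *EPHB6* overlapped, as did those of *EPHA1* and *EPHB6*. *EPHB2* came next in PC9, at 7.42 and 6.51 FPKM, with *EPHA4* at 1.87 in both. In PC9OR this order turned, with *EPHA4* at 8.68 and 7.49 FPKM and *EPHB2* at 3.55 and 3.20 FPKM. With length and GC offsets the log2 fold change was 2.58 for *EPHA4* and 0.02 for *EPHB2*, so the fall of *EPHB2* in FPKM was not kept. *EFNB2* led the ephrins (28.7 and 27.1 FPKM in PC9, 19.4 and 18.8 in PC9OR). *EFNA5* was second in PC9, at 12.5 and 10.0 FPKM, and *EFNB1* was second in PC9OR, at 10.35 and 8.69 FPKM.

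As a share of the summed FPKM of the 14 Eph receptors, *EPHA2* made up 55.9% and 54.1% in PC9 and 40.05% and 36.5% in PC9OR. The share of *EPHA4* was 1.41% and 1.66% in PC9 and 7.87% and 7.61% in PC9OR. The receptor pool was thus less dominated by 1 gene in the resistant libraries. Among the 8 ephrins, *EFNB1* made up 6.80% and 8.02% of the sum in PC9 and 21.8% and 19.3% in PC9OR, while *EFNA5* made up 21.1% and 18.0% against 9.66% and 11.3%. *EFNB2* remained the most abundant, at 48.6% and 48.8% in PC9 and 41.0% and 41.8% in PC9OR. The sum over all receptors was 132.5 and 113 FPKM in PC9 and 110 and 98.4 FPKM in PC9OR, and that over all ephrins was 59.1 and 55.6 against 47.4 and 45. Shares within a sum move together, so these values are given without a test. FPKM summed over all genes was 307648 and 357089 in PC9 and 413521 and 410202 in PC9OR. The family sums are therefore not on a common scale. The length trend between the lines was not removed from the shares or the sums.

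**Figure D4:**
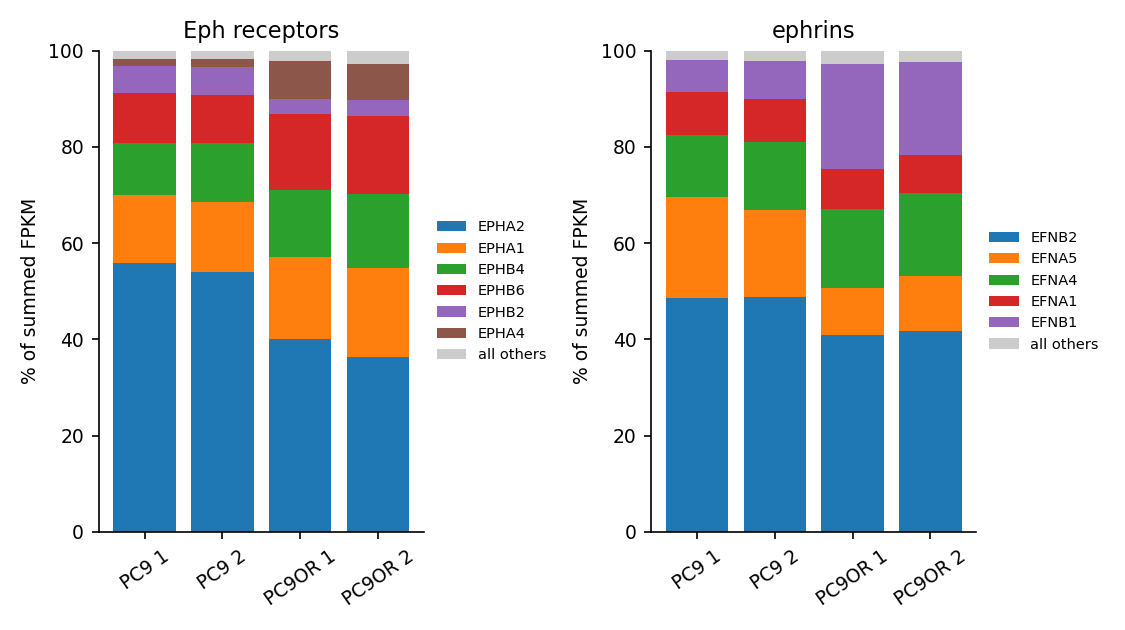
Share of each gene in the summed FPKM of the 14 Eph receptors and of the 8 ephrins, in percent, stacked for each of the 4 libraries. *EPHA2* takes 55.9% and 54.1% of the receptor sum in PC9 and 40.05% and 36.5% in PC9OR, and the *EFNB1* share of the ephrin sum is larger in both PC9OR libraries.

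Of the 12 remaining genes of the family, 6 were tested. *EPHA7* had 16 and 30 counts in PC9 and 0 in both PC9OR libraries, which is at least 9.18-fold lower when the mean of PC9 is set against a floor of 3 counts in a library (adjusted p = 0.0143, edgeR, and 0.137 by limma on log2(FPKM + 1)). *EPHA6* was low throughout, at 2.22 and 1.66 CPM in PC9 and 0.437 and 0.688 CPM in PC9OR, with a log2 fold change of -1.78 (adjusted p = 0.0343, edgeR). It remained lower but was not called without PC9 replicate 1 (-1.56, adjusted p = 0.0588, edgeR), PC9OR replicate 1 (-1.49, adjusted p = 0.197) or PC9OR replicate 2 (-2.14, adjusted p = 0.0984). *EPHA10*, whose kinase domain is inactive, was higher, at 10.8 and 10.6 CPM against 15 and 17.0 CPM (log2 fold change 0.58, adjusted p = 0.0471, edgeR). It was not called without PC9OR replicate 1 (0.67, adjusted p = 0.207, edgeR) or PC9OR replicate 2 (0.48, adjusted p = 0.378). The call lay close to the threshold and was also lost with DESeq2 size factors (adjusted p = 0.0504), the DESeq2 Wald test (0.0561), no filter on low counts (0.0564), a replicate block (0.0573) and limma on log2(FPKM + 1) (0.0834) or log2(FPKM + 0.1) (0.107), and was kept with the length and GC offsets, at 0.97 (adjusted p = 0.0175, edgeR). *EPHB6*, the other receptor with an inactive kinase domain, measured 69.1 and 58.0 CPM in PC9 and 89.8 and 84.4 CPM in PC9OR (log2 fold change 0.45, adjusted p = 0.0505, edgeR). It was called with the length and GC offsets, at 0.68 (adjusted p = 0.00406, edgeR), the DESeq2 Wald test (0.0322), a count minimum of 10 (0.0453) and a replicate block (0.0363). *EPHB6* was not called with DESeq2 size factors (adjusted p = 0.0568, edgeR), library totals (0.0562) or no filter on low counts (0.0546). Neither limma fit called it (adjusted p = 0.0714 on log2(FPKM + 1) and 0.0682 on log2(FPKM + 0.1)). Its log2 fold change was 0.58 and 0.31 without PC9 replicate 1 and 2, and 0.41 and 0.50 without PC9OR replicate 1 and 2. *EFNA3* and *EFNA4*, which share a readthrough transcript, had log2 fold changes of 0.07 and 0.05 (adjusted p = 0.866 and 0.838, edgeR), and both turned negative with the offsets. *EPHA8* was at 0 in every library, and *EPHA3*, *EPHA5*, *EPHB1*, *EFNA2* and *EFNB3* had no more than 4 counts in any.

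Genes that act with the receptors were read from lists by role. Of 27 forward signalling partners, which bind the activated receptor or carry its signal, 25 were tested, 4 were higher and 7 lower, where 15.6% and 20.8% of all genes were called in these directions. The median log2 fold change was -0.13. *CRKL*, an adaptor that joins phosphorylated receptors to exchange factors, rose from 138 and 132 CPM to 813 and 805 CPM (log2 fold change 2.59, adjusted p = 0.0022, edgeR). The guanine nucleotide exchange factors *NGEF* (ephexin, a partner of EPHA4) and *VAV3* rose by 2.05 and 1.89 on the log2 scale (adjusted p = 0.0179 and 0.0101, edgeR), and the adaptor *NCK2* by 1.18 (0.00751). Both exchange factors rose from a low level. *NGEF* measured 2.77 and 1.39 CPM in PC9 and 8.90 and 8.22 CPM in PC9OR. *VAV3* measured 1.66 and 1.53 CPM against 5.71 and 6.13 CPM. The kinases *ABL2* and *FYN* fell by 1.36 and 1.21 (adjusted p = 0.00508 and 0.00591, edgeR). *ABL2* has a long transcript, and with length and GC offsets its difference was -0.58 and still called (adjusted p = 0.0114, edgeR). With the offsets 7 of the 25 were higher and 6 lower, against 22% and 20.4% of all genes. *PIK3R1* was at 0 in PC9 replicate 1 and between 372 and 392 counts in the other 3 libraries, and was not called.

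Of the 7 reverse signalling partners, which bind or act behind the tail of B-type ephrins, none was higher (15.6% of all genes) and 4 were lower (20.8% of all genes), and 2 were lower with the offsets (20.4% of all genes). The median log2 fold change was -0.65, and -0.14 with the offsets. *RGS3*, a regulator of G protein signalling bound by B-type ephrins, fell by 1.06 on the log2 scale (adjusted p = 0.0448, edgeR). Its difference remained negative but was not called without PC9 replicate 1 (-0.71, adjusted p = 0.0580, edgeR), PC9OR replicate 1 (-1.19, adjusted p = 0.114) or PC9OR replicate 2 (-0.93, adjusted p = 0.202), nor in the limma fits on log2(FPKM + 1) (adjusted p = 0.0655) and log2(FPKM + 0.1) (adjusted p = 0.0609). *SDCBP*, the PDZ scaffold syntenin, fell by 1.02 (adjusted p = 0.00719, edgeR), and stood at -0.92 without PC9OR replicate 1 (adjusted p = 0.0545, edgeR).

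Sheddases, secretase subunits and genes of receptor turnover gave 3 higher and 4 lower of 15 tested, against 15.6% and 20.8% of all genes, and 4 and 4 with the offsets, against 22% and 20.4%. These shares lie near the background. *MMP9*, a secreted metalloproteinase, rose by 3.87 on the log2 scale from a low level, 0.512 and 0.381 CPM in PC9 to 7.40 and 5.72 CPM in PC9OR (adjusted p = 0.00529, edgeR). *RHBDL2*, a rhomboid protease that can cut B-type ephrins, had 34 and 42 counts in PC9 and 0 in both PC9OR libraries, at least 15.5-fold lower on the same floor (adjusted p = 0.00929, edgeR). *CBL*, a ubiquitin ligase for receptor tyrosine kinases, fell by 1.57 and the receptor phosphatase *PTPRJ* by 1.46 (adjusted p = 0.00761 and 0.0091, edgeR). *CBL* also has a long transcript, and its difference was -0.69 with length and GC offsets (adjusted p = 0.00441, edgeR). That of *PTPRJ* was -0.87 (adjusted p = 0.00361, edgeR). Both calls were kept.

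The 5 AKT and RSK kinases read here were listed by family, and whether each of them acts on EPHA2 was not tested. None was higher (15.6% of all genes) and 2 were lower (20.8% of all genes). *RPS6KA2*, which encodes RSK3, fell from 81.9 and 58.0 CPM in PC9 to 3.47 and 2.34 CPM in PC9OR, a log2 fold change of -4.59 (adjusted p = 0.00351, edgeR). *RPS6KA3*, which encodes RSK2, fell by 1.14 (adjusted p = 0.0053, edgeR). With the offsets 1 of the 5 was higher and 2 were lower (22% and 20.4% of all genes). *RPS6KA2* then stood at -3.96 (adjusted p = 0.000643, edgeR). *RPS6KA3*, which has a long transcript of 7710 bases, stood at -0.75 (adjusted p = 0.00319, edgeR).

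**Figure D5:**
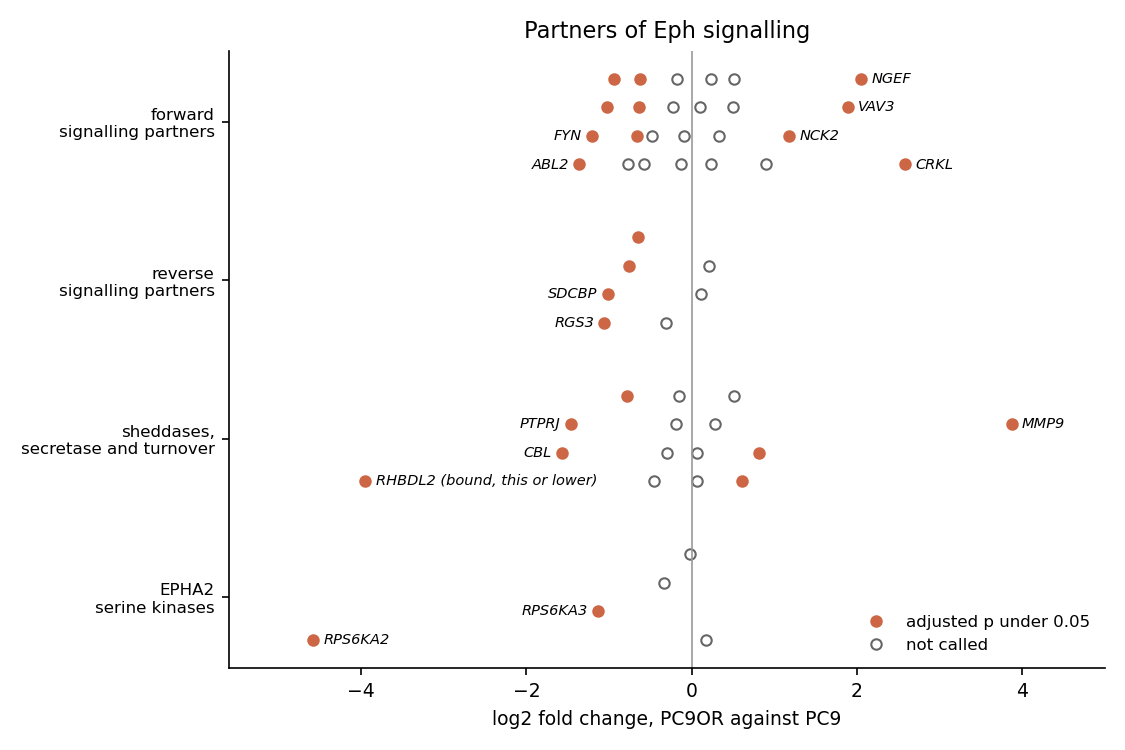
Log2 fold change, PC9OR minus PC9, of the tested genes of the partner lists. Each point is a gene, and *RHBDL2*, at 0 in both PC9OR libraries, is drawn at its bound. *CRKL* and *MMP9* stand at the upper end and *RPS6KA2* at the lower end.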

How the data were processed

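RNA-seq (stranded TruSeq libraries) of PC9 and PC9OR cells was deposited as 1 table per library of expected counts and FPKM per gene, with a transcript length. Per the labels and the submitters' processing notes, the authors aligned reads to transcripts of build GRCh37 with Bowtie2 (2.2.5) and estimated expected counts and FPKM with RSEM (1.2.12). Tables list only genes above 0, and a gene absent from a library was taken as 0. The expected counts, rounded to integers, were analysed with edgeR 4.0.16 (R 4.3.3) by the quasi-likelihood test with TMM scaling and the default filter on low counts, without a replicate block, over 13148 genes with Benjamini-Hochberg adjustment, and called at an adjusted p under 0.05. Library totals ranged from 23201307 to 32203998, and 99.7% of genes had a symbol. Offsets for transcript length and GC content were smoothed per library with mgcv 1.9.3, with GC content matched for 96.3% of genes. Alternatives used DESeq2 1.42.0, limma 3.58.1 on log2(FPKM + 1) and log2(FPKM + 0.1), other filters, offsets, a block, and each library left out. All members and family genes were named, and of each partner list at most 6 genes called and changed more than 2-fold. Members and lists were chosen with earlier results of these data known. Scripts were tested on simulated data. Some genes and 1 partner list are not reported here.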

Additional observations from a re-analysis of the deposited data

How the results depend on the processing

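With 2 libraries a group, leaving out 1 library decided much of the count. Genes higher in PC9OR numbered 2056 and genes lower 2734, and these ranged from 540 to 3984 and from 1232 to 3978 when 1 library was left out, most without PC9 replicate 2, fewest without PC9OR replicate 2 and nearly as few, 580 and 1265, without PC9OR replicate 1 (the lone sample is then assumed to vary like the other group). Members called higher stayed at 2 and members called lower ranged from 1 to 4. Length offsets gave 3 higher and 3 lower members, also with a replicate block, and length and GC offsets gave 4 and 2, also with the block. Requiring a change over 2-fold gave 806 and 1523 genes, with 2 and 2 members, and adding an adjusted p under 0.001 left 0 genes and 0 members in either direction (edgeR), where 6653 genes had an unadjusted p under 0.05. The replicate block, 2593 genes higher and 2946 lower with 2 and 4 members, used numbers that samples only share (correlation of same-numbered deviations 0.05), and changed no call of a member, but lost that of *EPHA10* and gained that of *EPHB6*. DESeq2 (2439 and 3030 genes), its size factors, library totals, the count minimum of 10, no filter and both limma fits gave 2 and 4 members as well. The log2 fold change of *EPHB2* turned to 0.021 with length and GC offsets and to 0.033 with the block added. *EFNA3* turned to -0.10 (length offsets), -0.11 (with the block), -0.072 (length and GC offsets) and -0.073 (these with the block), and ranged from -0.050 to 0.175 when 1 library was left out, negative without PC9OR replicate 1. *EFNA4* turned to -0.28, -0.28, -0.19 and -0.19 under the same 4 offset fits, and ranged from -0.0076 to 0.077 when 1 library was left out, negative without PC9 replicate 1. The cause of these turns was not tested. *EFNA1* was called lower with length offsets, also with the block (-0.63 in each). Over the alternatives for single members, 151 values kept direction and side of the threshold, 19 lost the call, 8 gained it and 2 turned. This tally includes the stricter thresholds, which reuse the main estimate. Under them a member not called could only count as kept, and a lost call reflects the tighter cutoff alone.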
